A study of Mus musculus with 6 samples.

Results

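The genes described here encode the enzymes that add or remove methyl groups on histones and those that remove acetyl groups. They were found by symbol among the probe sets that the platform annotation assigns to a single gene: Nsd1, Dot1l, the Kmt2 genes, and the numbered Kdm, Setd, Prmt, Hdac and Sirt genes, with Setdb1 left out. A probe set is a group of short probes that reads 1 transcript on the array, and the brightest probe set over the 6 arrays stood for each gene. This gave 59 of the 18193 genes named on the array. Ash1l, the other gene named by the rule, had no single-gene probe set in the annotation and was not analysed here.

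Messenger RNA was measured with Affymetrix arrays in undifferentiated mouse embryonic stem (ES) cells of 2 lines, with 3 arrays for each. The line D4 is Dicer +/-, with 1 working copy of Dicer, and the line called 27H in the sample titles and 27H10 in the series title is Dicer -/-. Dicer is the ribonuclease that cuts precursors into mature microRNAs, so the comparison asks which transcripts differ when it is missing. Both lines carry at least 1 disrupted copy, and cells with both copies intact were not part of the comparison; since each genotype is 1 line, the effects of genotype and of line cannot be told apart. Whether a line's 3 arrays were hybridised with RNA of independent cultures is not given, and the p-values therefore cover only array-to-array spread, which may be technical. As the RNA came from whole cultures, a change in the share of cells and a change in RNA per cell cannot be told apart.

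Histone lysines are methylated mainly by proteins with a SET domain, and by Dot1l, which has none. The flavin-dependent enzymes Kdm1a and Kdm1b and the Jumonji proteins take the methyl groups off, Prmt enzymes methylate arginines, and acetyl groups are removed by the zinc-dependent Hdac enzymes and the NAD-dependent sirtuins. In ES cells, methylation of lysine 4 of histone H3 (H3K4) marks promoters and enhancers in use. Methylation of lysine 36 marks transcribed gene bodies, and some of the deacetylases, among them Hdac1, Hdac2 and Hdac3, work inside corepressor complexes.

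The values are intensities in arbitrary units, scaled by the authors so that each array has the same trimmed mean. Dicer1 itself read 1098 ± 39.2 in heterozygous and 1197 ± 62.2 in null arrays (SD, n = 3) with its brighter probe set, which is 0.12 on the log2 scale (limma adjusted p 0.256). Since the deleted stretch is not named in the labels, this checks nothing about the genotype. All 9 ES cell markers examined (Pou5f1, Nanog, Sox2, Zfp42, Esrrb, Tdgf1, Utf1, Dppa5a and Fgf4) reached an intensity of 32 in at least 3 arrays. Their summed intensity lay between 104480 and 109500 in heterozygous arrays and between 98289 and 104500 in null arrays. At a limma adjusted p under 0.05, Utf1 (-0.27 on the log2 scale) and Tdgf1 (-0.23) were lower and Fgf4 (0.52) was higher in null cells. The other ES cell markers did not pass, and none changed 2-fold. The summed intensity of 6 primitive endoderm markers was 897 to 1340 in heterozygous and 347 to 407 in null arrays, that of 6 trophectoderm markers 11003 to 12225 and 5837 to 6333, that of 4 mesoderm markers 567 to 626 and 292 to 426, and that of 5 neural markers 1198 to 1418 and 1681 to 1960. Past both the test and a 2-fold change, 2 of the primitive endoderm, 2 of the trophectoderm and 1 of the mesoderm markers were lower and 2 of the neural markers were higher. The 7 fibroblast markers moved in opposite directions: Dcn was higher (31.0 ± 23.8 against 263 ± 56.6) and Col1a1 lower (70.0 ± 28.0 against 6.62 ± 1.91; SD, n = 3). The fibroblast sum was 387 to 440.4 in heterozygous and 415 to 553 in null arrays, and without Dcn it was 329 to 422 and 211 to 237. The ratio of the 3' to the 5' control probe set of beta-actin was 1.34 to 1.46 in heterozygous and 1.74 to 1.78 in null arrays, and that of Gapdh 0.813 to 0.844 and 0.812 to 0.841. The part of these differences in the results below was not tested.

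The histone enzyme genes as a group had a median difference near 0, and 3 of them passed both the test and a 2-fold change. Of the 59 genes, 56 reached an intensity of 32 in at least 3 arrays and were tested. At a limma adjusted p under 0.05, adjusted over all 12927 genes tested, 12 were higher and 13 lower in null cells, which is 21.4% and 23.2% of those tested. Over all genes the shares were 24.5% higher and 24.3% lower, or 48.8% in either direction. With a 2-fold change required as well, 1 member was higher (Sirt7) and 2 were lower (Kdm4a and Setd5), against 7.23% and 6.2% of all genes. The median log2 difference of the 56 was -0.00, and that of all genes was -0.01. For 30 of the 56, or 53.6%, every array of 1 line lay above every array of the other, against 57.2% of all genes. Below, "rose" and "fell" are used for an adjusted p under 0.05, and differences are null minus heterozygous.

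**Figure D1:**
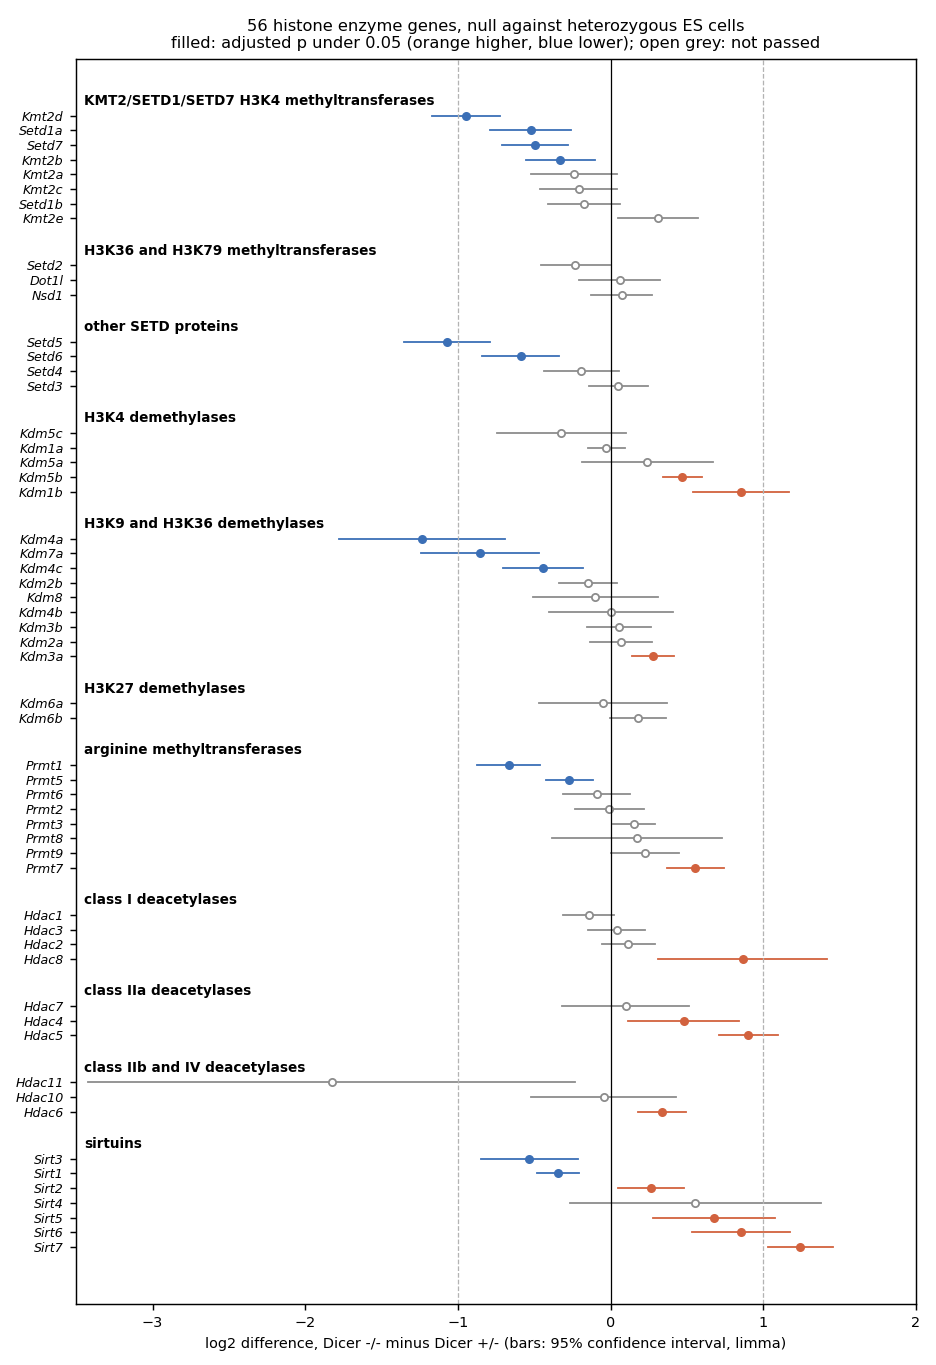
Log2 difference between null and heterozygous cells (horizontal axis) for the 56 histone enzyme genes tested, grouped by role, with the 95% confidence interval from limma as a bar. Filled points passed an adjusted p of 0.05 (orange higher, blue lower), open grey points did not, and dashed lines mark a 2-fold change. Sirt7, Kdm4a and Setd5 lie past it with a filled point, and Hdac11 (-1.83) lies past it with an open one.

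Unless an alternative is named, the counts by role, here and in the paragraphs below, are to be set against the shares over all genes. These are 24.5% higher and 24.3% lower. Among the 15 SET domain and Dot1l methyltransferases, 0 rose and 6 fell (40%), with a median of -0.23. Among the 17 deacetylases and sirtuins, 8 rose (47.1%) and 2 fell (11.8%), with a median of 0.27. The 16 demethylases gave 3 in each direction (18.8% each, median -0.01). The 8 arginine methyltransferases gave 1 higher (12.5%) and 2 lower (25%), with a median of 0.07. Setting the medians of the whole arrays equal, called median centring below, is an alternative that moves the median of all genes from -0.01 to 0.14. It gave 1 higher and 5 lower for the methyltransferases and 9 higher and 1 lower for the deacetylases and sirtuins. Over all 12927 genes it gave 4176 higher and 2103 lower at the adjusted p, against 3162 and 3143 before. It also changed the medians to -0.08 and 0.42, and the demethylase median turned to 0.14. For the deacetylases and sirtuins, single arrays also moved the counts: 5 rose and 2 fell without null replicate 1, and 5 rose and 4 fell without null replicate 3. Over all 12927 genes, 2819 rose and 2893 fell without null replicate 1, and 3023 rose and 3116 fell without null replicate 3. Without the genes of chromosomes 1 and 11, an alternative chosen after seeing the data, 5 of 14 rose and 2 fell, with a median of 0.11. Of all 11104 genes tested in that alternative, 2372 rose and 2954 fell. Under median centring the 2-fold calls over all genes went from 934 higher and 802 lower to 1263 higher and 575 lower, so the balance of directions moved with the scaling. No difference between roles was tested.

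Of the 8 Kmt2, Setd1 and Setd7 genes, whose families hold the H3K4 methyltransferases, 4 fell and 0 rose. Kmt2d, the methyltransferase of enhancers, read 1037, 1091 and 915 in the heterozygous arrays and 501, 503 and 575 in the null arrays. It was 1.93-fold lower (-0.95 ± 0.10 SE, limma adjusted p 1.75e-05), just short of 2-fold. All 3 null arrays lay well below the lowest heterozygous array. Setd1a, a catalytic subunit of the COMPASS complex that acts at promoters, read 734, 786 and 757 against 532, 446 and 619 and fell by 0.52 on the log2 scale (adjusted p 0.00366). Setd7, which adds a single methyl group to H3K4 and to other proteins, read 595, 562 and 601 against 429, 428 and 390.3, a difference of -0.50 (adjusted p 0.0015). The groups did not overlap for either gene. Kmt2b, the closest relative of Kmt2a, read 1603, 1505 and 1334 against 1199.9, 1039 and 1303, a difference of -0.33 (adjusted p 0.0195). Its highest null array came within 31.1 units of its lowest heterozygous array, and its call was lost in 5 of 18 alternatives, among them leaving out heterozygous replicate 1 or 2 or null replicate 2.

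The others of these families did not pass the test. Kmt2a, the mouse counterpart of the leukaemia gene MLL, differed by -0.24 (95% confidence interval -0.52 to 0.04), Kmt2c by -0.21 (-0.46 to 0.04) and Setd1b by -0.17 (-0.41 to 0.06). Kmt2e, whose SET domain is not known to methylate H3K4 and which was the 1 family member with a positive difference, was at 0.31 (0.05 to 0.57), with an adjusted p of 0.051 and null arrays that all exceeded the heterozygous ones. The 3 tested enzymes of H3K36 and H3K79 also did not pass: Setd2, the main enzyme that trimethylates H3K36, was at -0.23 (-0.46 to -0.01), Nsd1, which dimethylates H3K36, at 0.07 (-0.13 to 0.27), and Dot1l, the H3K79 methyltransferase, at 0.06 (-0.21 to 0.33).

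Setd5, a chromatin protein whose own catalytic activity is debated, had the largest decrease of the SET domain genes. It read 677, 614 and 579 in heterozygous and 250.2, 327 and 316 in null arrays, 2.10-fold lower (-1.07 ± 0.13 SE, limma adjusted p 4.01e-05). The highest null array stood at 56.6% of the lowest heterozygous array. The difference was -0.95 without null replicate 1 and -0.92 under median centring, below 2-fold in both. Setd6, which methylates the NF-kappaB subunit RelA, read 786, 1011 and 842 against 536, 572 and 643 and fell by 0.59 (adjusted p 0.00131). Setd3, a histidine methyltransferase of actin, and Setd4 did not pass, at 0.05 (-0.14 to 0.25) and -0.19 (-0.44 to 0.06).

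Among the demethylases of H3K4, Kdm1b and Kdm5b rose. Kdm1b (LSD2), a flavin-dependent enzyme needed to set maternal imprints in oocytes, read 273, 259.7 and 317 against 448, 482 and 616, 1.81-fold higher (0.85 ± 0.14 SE, limma adjusted p 0.000445). Kdm5b, a Jumonji enzyme abundant in ES cells, read 6133, 5869 and 6085 against 8719, 8118 and 8249, 1.39-fold higher (0.47 ± 0.06, adjusted p 5.42e-05). The groups were separate for both genes, but as a mean over its probe sets Kdm5b was at 0.20 and did not pass (adjusted p 0.0866). Kdm5b lies on chromosome 1 (726 genes tested, median difference 0.31) and stood 0.17 above the median of its chromosome. Kdm1a (LSD1), the partner of the CoREST proteins, read 9281, 9094 and 9048 against 9224, 8822 and 8867, a difference of -0.03 with an interval from -0.15 to 0.09. Kdm5a was at 0.24 (-0.19 to 0.67), and X-linked Kdm5c at -0.32 (-0.75 to 0.10). Kdm5d, the Y-linked member, stayed below 32 in every array, between 9.90 and 14.2 in heterozygous and between 18.9 and 29.1 in null arrays, and was not tested.

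Of the 9 tested demethylases of H3K9 and H3K36, 3 fell and 1 rose. Kdm4a, which removes trimethylation from both lysines, read 338, 369 and 398 in heterozygous and 207, 96.9 and 189 in null arrays, 2.35-fold lower (-1.23 ± 0.25 SE, limma adjusted p 0.00156). Null replicate 2 was the lowest by far, and without it the difference was -0.89 (adjusted p 0.000843). The groups did not overlap with or without it. Its relative Kdm4c read 803, 727 and 784 against 523, 510.1 and 684 and fell by 0.44 (adjusted p 0.0097), a call that was lost under median centring (-0.29, adjusted p 0.0696). Kdm7a, a PHD finger demethylase of H3K9 and H3K27, read 245, 333 and 239.5 against 133, 151 and 164 and was 1.81-fold lower (-0.86 ± 0.18, adjusted p 0.0018). All null arrays of Kdm4c and Kdm7a were below all heterozygous ones. Kdm3a, a demethylase of H3K9 induced by hypoxia, was the member that rose, from 6455, 6318 and 6604 to 8127, 8073 and 7358 (0.28 ± 0.06, adjusted p 0.00305).

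Kdm2a, Kdm2b, Kdm3b, Kdm4b and Kdm8 did not pass, with differences between -0.15 and 0.07. Kdm2b recruits Polycomb complex 1 to CpG islands, and its interval ran from -0.34 to 0.04. Kdm4d, an H3K9 demethylase of the testis, lay under 40 in every array (0.988 to 39.2) and was not tested. The demethylases of H3K27 did not pass either, with Kdm6a (UTX) at -0.05 (-0.47 to 0.37) and Kdm6b (JMJD3) at 0.18 (-0.00 to 0.36). Kdm6b read 1454, 1387 and 1234 against 1569, 1574 and 1465, without overlap, and lies on chromosome 11 (1097 genes tested, median difference 0.29).

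Among the 8 arginine methyltransferases, Prmt1 and Prmt5 fell and Prmt7 rose. Prmt1, the main source of asymmetric dimethylarginine, read 17578, 16794 and 16014 against 11752, 11274 and 8897, 1.59-fold lower (-0.67 ± 0.09 SE, limma adjusted p 0.000138). Prmt7, which makes monomethylarginine, read 2447, 2591 and 2209 against 3741, 3719 and 3198, 1.47-fold higher (0.56 ± 0.09, adjusted p 0.000244). The 2 genes moved apart without overlap between groups, and both kept their calls in every alternative. Prmt5, the main source of symmetric dimethylarginine, differed by -0.27 (adjusted p 0.00795), or -0.12 (adjusted p 0.28) under median centring. Prmt2, Prmt3, Prmt6, Prmt8 and Prmt9 did not pass, with differences from -0.09 to 0.23.

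Of the 10 zinc-dependent deacetylases tested, 4 rose and 0 fell. These counts depended on single arrays: 2 rose and 0 fell without null replicate 1, 3 rose and 1 fell without null replicate 2, and 2 rose and 2 fell without null replicate 3. Over all genes, these alternatives gave 2819, 2778 and 3023 higher and 2893, 2826 and 3116 lower, in the same order. Hdac5, a class IIa enzyme that shuttles between nucleus and cytoplasm, read 456, 466 and 464 in heterozygous and 894, 835 and 863 in null arrays, 1.87-fold higher (0.90 ± 0.09 SE, limma adjusted p 8.18e-06). Hdac4, of the same class, read 309, 196 and 266 against 374, 344 and 341 (0.48 ± 0.17, adjusted p 0.0315). Neither gene had overlapping groups. Hdac5 lies on chromosome 11 (median 0.29) and Hdac4 on chromosome 1 (median 0.31), and the part of these chromosome-wide shifts was not tested. Hdac4 lost its call in 6 of 17 alternatives, among them leaving out heterozygous replicate 2 (0.30, adjusted p 0.121) or any null replicate. Hdac7 differed by 0.10 (-0.32 to 0.51), and Hdac9 was under 42 in every array (3.14 to 41.6) and was not tested.

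Hdac8, a class I enzyme encoded on the X chromosome that deacetylates cohesin, read 117, 87.7 and 70.1 against 185, 127 and 185 (0.87 ± 0.25 SE, limma adjusted p 0.0142). The lowest null array exceeded the highest heterozygous array by 10.4 units, and the adjusted p was 0.0537 without null replicate 1 and 0.051 without null replicate 3. Hdac6, a cytoplasmic deacetylase of tubulin that is also X-linked, read 2714, 2567 and 2548 against 3512, 3337 and 3055 (0.34 ± 0.07, adjusted p 0.00238). The tested genes of the X chromosome had a median of -0.15, opposite in sign to these 2 genes.

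The deacetylases at the core of the corepressor complexes did not pass. Hdac1 read 5366, 5655 and 5816 against 4543, 5274 and 5458, a difference of -0.14 with an interval of -0.31 to 0.03. Hdac2 read 4169.6, 4050.3 and 4257 against 4116, 4416 and 5047, at 0.12 (-0.06 to 0.29), and Hdac3 was at 0.04 (-0.15 to 0.23). In each case the groups overlapped, and the intervals exclude a change of 1.5-fold in either direction. Hdac10 was at -0.04 (-0.52 to 0.43). Hdac11, the class IV enzyme, did not pass, at -1.83 with an interval from -3.42 to -0.23 and a limma adjusted p of 0.0567. It read 104, 87.2 and 65.3 against 5.95, 50.3 and 44.3, and null replicate 1 lay far below the intensity of 32 used as the filter. Without that array the difference was -0.83. Hdac11 passed in 5 of 17 alternatives.

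Of the 7 sirtuins, 4 rose and 2 fell. Sirt7, a nucleolar and chromatin enzyme that removes acetyl groups from H3K18, read 506, 478 and 469 in heterozygous and 1274, 1121 and 1055 in null arrays. It was 2.37-fold higher (1.24 ± 0.10 SE, limma adjusted p 1.49e-06), and every null array was more than 2 times the highest heterozygous value. Sirt7 was the 1 member to rise past 2-fold and did so in all 17 alternatives that tested it. It lies on chromosome 11, 0.95 above that chromosome's median difference. Sirt6, a chromatin deacylase of H3K9 and H3K56, read 150.3, 168 and 165 against 320.0, 265 and 290.3, 1.81-fold higher (0.85 ± 0.15, adjusted p 0.000502). Sirt5, a mitochondrial desuccinylase, read 131, 174 and 183 against 292, 268 and 218 (0.68 ± 0.18, adjusted p 0.00897). As a mean over its probe sets Sirt5 was at 0.47 and did not pass (adjusted p 0.1), its dimmer probe set alone being at 0.26. The groups were separate for both, and neither gene lies on chromosome 1 or 11.

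Sirt1 and Sirt3 went the other way. Sirt1, the nuclear sirtuin of ES cells that deacetylates p53 as well as histones, read 5121, 4956 and 5218 against 3849, 4162 and 4044 (-0.34 ± 0.06 SE, limma adjusted p 0.00075). Sirt3, the main mitochondrial deacetylase, read 513, 432 and 419 against 361, 328 and 259.9 (-0.53 ± 0.14, adjusted p 0.00979). Their null arrays all lay below their heterozygous arrays, but Sirt1 was at -0.19 (adjusted p 0.0517) under median centring. Sirt2, a tubulin deacetylase, differed by 0.27 (adjusted p 0.0429) and lost its call in 10 of 17 alternatives. Sirt4 did not pass (0.56, interval -0.27 to 1.38), with 1 heterozygous array at 40.0 and the others at 99.1 and 126.

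**Figure D2:**
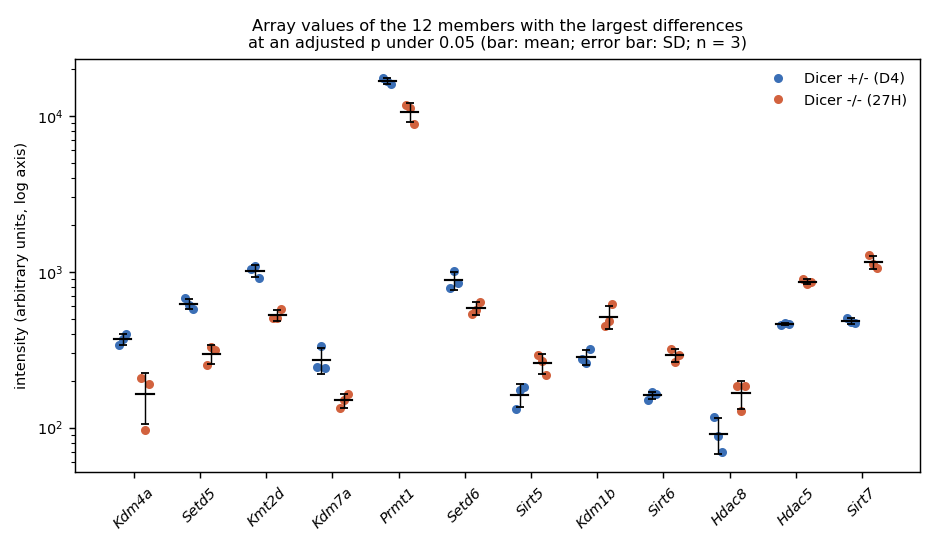
Intensity in arbitrary units on a log axis for the 12 members with the largest log2 differences at an adjusted p under 0.05, with a point per array, the mean as a bar and the SD as an error bar (n = 3 arrays per line). Genes are ordered from Kdm4a (-1.23) to Sirt7 (1.24). Blue heterozygous and orange null arrays do not overlap for any of the 12, which choosing the largest differences favours. Over all genes tested, 57.2% did not overlap.

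The sequences before the listed start sites of the 3 genes that passed both the test and a 2-fold change are shown as sequence context. Whether transcription in these cells begins at the listed starts was not tested. This matters most for Setd5, whose stretch was 36.8% G and C against a median of 59.6% for the members, and which may not be a promoter in use. Each is the 250 bases before the start that RefSeq lists on GRCm38.p6, written 5' to 3' on the strand of the gene. Capitals mark matches, on either strand, to 4 promoter motifs: the TATA box (TATAAA), the GC box (GGGCGG), the CCAAT box (letters as in its name) and the E-box (CACGTG). The stretch of Sirt7 is chr11:120625015-120625264 (minus strand), that of Kdm4a chr4:118180044-118180293 (minus strand) and that of Setd5 chr6:113104685-113104934 (plus strand).
Sirt7: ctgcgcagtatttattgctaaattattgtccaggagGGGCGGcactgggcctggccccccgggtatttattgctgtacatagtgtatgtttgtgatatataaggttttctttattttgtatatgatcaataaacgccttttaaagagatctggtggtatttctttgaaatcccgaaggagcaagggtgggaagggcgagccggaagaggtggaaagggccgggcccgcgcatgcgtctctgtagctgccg
Kdm4a: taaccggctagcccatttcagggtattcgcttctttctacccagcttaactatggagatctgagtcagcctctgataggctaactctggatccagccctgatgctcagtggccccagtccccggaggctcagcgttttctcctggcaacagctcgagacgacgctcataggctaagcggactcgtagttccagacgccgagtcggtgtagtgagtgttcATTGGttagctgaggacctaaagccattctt
Setd5: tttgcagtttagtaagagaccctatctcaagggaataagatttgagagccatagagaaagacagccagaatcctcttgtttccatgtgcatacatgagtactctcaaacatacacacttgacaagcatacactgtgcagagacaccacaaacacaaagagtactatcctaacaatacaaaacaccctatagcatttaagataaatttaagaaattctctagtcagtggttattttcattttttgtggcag
The Sirt7 stretch held 12 CpG dinucleotides and 1 GC box, that of Kdm4a 12 CpG dinucleotides and 1 CCAAT box on the opposite strand, and that of Setd5 0 CpG dinucleotides and none of the motifs. The set of start sites used here held 47 of the 59 members, and 1 stretch was taken for each. These held a median of 17 CpG dinucleotides against 6 over all 32851 listed. The comparison set held every listed start, with no limit to 1 per gene or to genes tested on the array. As the sets were built differently, the contrasts here are not a measured trait of histone enzyme genes. A GC box was present in 59.6% of the members' stretches and 32.7% of all, a CCAAT box in 40.4% and 33.8%, a TATA box in 8.51% and 12.4% and the E-box in 8.51% and 6.02%. A match describes the letters of the stretch and no binding, and matches of different motifs were counted separately.

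Different probe sets of a gene did not always give the same answer. Of the 59 genes, 32 had at least 2 probe sets past the intensity filter. In 2 of them, probe sets passed an adjusted p of 0.05, over all 23377 probe sets tested, in opposite directions. For Setd7, the brightest read 586 ± 21.1 and 416 ± 22.0 (SD, n = 3), and the dimmer one read 64.3 ± 16.4 and 117 ± 12.8, a difference of 0.88 (limma adjusted p 0.0226). The mean over both turned the sign of Setd7 to 0.19 (adjusted p 0.307). For Kdm5c, 3 probe sets other than the brightest fell (-0.36, -0.91 and -0.97) and 1 rose (0.41). Probe sets of 1 gene can read different transcript ends or isoforms, and which of these applies was not tested.

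Other members held together or split by size. All 3 probe sets of Hdac4 rose, at 0.48, 0.80 and 0.70. For Setd5, the dimmer probe sets were at -2.02 and -0.21, the latter with an adjusted p of 0.438 over probe sets. Kdm7a rested on its brightest probe set, as the others were at -0.18 and -0.09, and as a mean over probe sets it did not pass (-0.38, adjusted p 0.15). Kdm5b had a second called probe set at 0.49 and 2 dim ones at -0.02 and -0.16. Kdm6a, not called by its brightest probe set, had another at -0.61 (adjusted p 0.00878), and Kdm6b had 1 at 0.66 (adjusted p 0.00114). Further members not called by their brightest probe set also had a dimmer one that passed (limma adjusted p 0.0103 to 0.0436). It was lower in null cells for Setd4 (-0.45), Kmt2c (-0.38), Kdm1a (-0.17) and Kdm5a (-0.51, against 0.24 for the brightest). For Kmt2e (0.50) and Kdm3b (0.52) it was higher. The choice mattered for Prmt2, whose probe sets were nearly equally bright: the one brighter by mean log2 value was at -0.01, and the one brighter by mean intensity at -0.26 (adjusted p 0.0335).

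**Figure D3:**
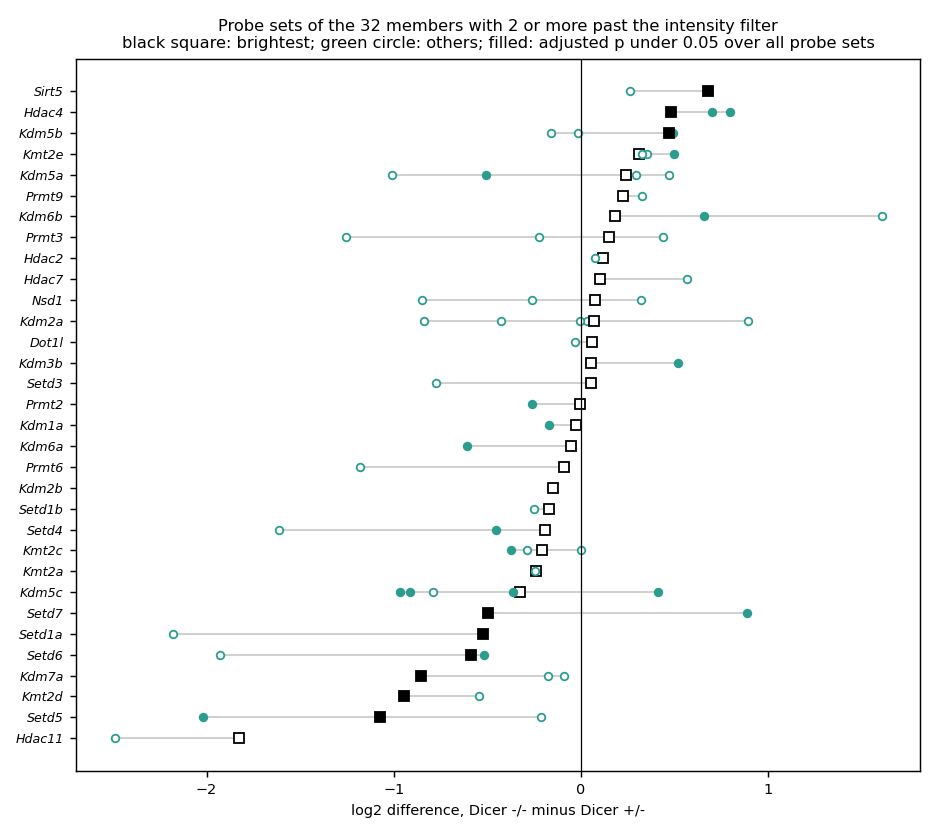
Log2 differences (horizontal axis) of every probe set past the intensity filter for the 32 members with at least 2, with the brightest as a black square and the others as green circles, filled where the adjusted p over all probe sets was under 0.05. Filled symbols lie on both sides of 0 for Setd7 and Kdm5c.

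The members on chromosomes 1 and 11 all had positive differences. They are Kdm5b and Hdac4 on chromosome 1 and Hdac5, Sirt7 and Kdm6b on chromosome 11, of which 4 rose and all 5 had separate groups. Over all genes tested, the median difference was 0.31 on chromosome 1 and 0.29 on chromosome 11, while on the other autosomes it lay between -0.11 and -0.01. Of the 51 members elsewhere, 8 rose and 13 fell, with a median of -0.04. The labels do not say whether either line carries extra chromosomes, and the part of a whole-chromosome shift in these 5 results was not tested.

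**Figure D4:**
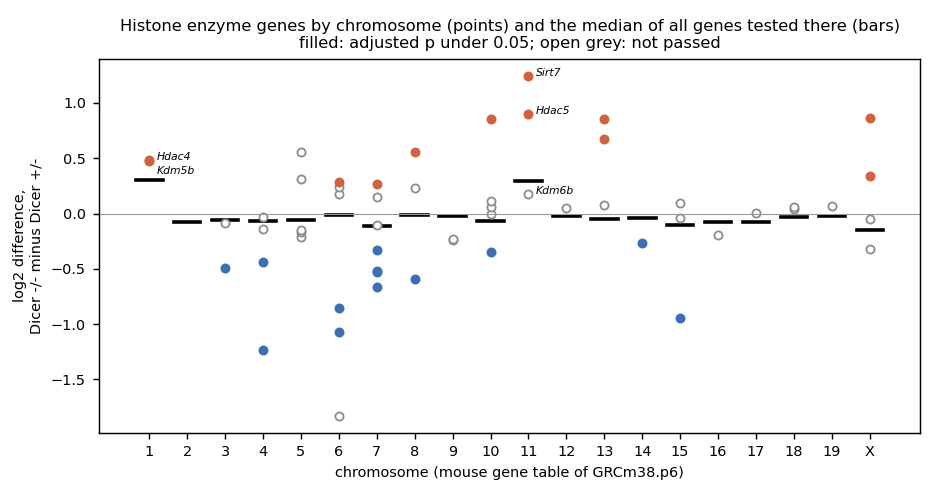
Log2 difference of each histone enzyme gene tested (points) by chromosome, with the median of all genes tested on that chromosome as a black bar; filled points passed an adjusted p of 0.05. Members on chromosomes 1 and 11 lie above 0, as do the medians of those chromosomes (0.31 and 0.29).

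The enzymes were then set beside their binding partners and related enzymes, 72 genes of 75 listed. Of these, 21 rose (29.2%) and 24 fell (33.3%), against 24.5% and 24.3% of all genes. Past 2-fold as well, 5 rose (6.94%) and 0 fell, against 7.23% and 6.2% of all genes, and the counts of the lists below are to be set against the same shares. Among 28 subunits of the Sin3, NuRD, CoREST and NCoR deacetylase complexes, 9 rose and 10 fell, with a median of -0.03. Rcor3, a CoREST protein that binds Kdm1a and Hdac1, read 69.8, 96.0 and 86.5 against 269.6, 172 and 293, 2.86-fold higher (1.52 ± 0.24 SE, limma adjusted p 0.000279). It is on chromosome 1 (median 0.31) and was at 0.99 as a mean over its probe sets. Hdac1 and Kdm1a themselves did not pass by their brightest probe sets.

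Among 17 partners of the H3K4 and H3K79 methyltransferases, 2 rose and 7 fell, none past 2-fold, with a median of -0.00. Pagr1a, a subunit found in the Kmt2c and Kmt2d complexes, read 1428, 1574 and 1385 against 837, 786 and 861 (-0.82 ± 0.08 SE, limma adjusted p 1.2e-05). Mllt1, a reader of acetylated histones that binds Dot1l, read 208, 248 and 176 against 105, 119 and 135 (-0.81 ± 0.19, adjusted p 0.00458), or -0.48 (adjusted p 0.206) as a mean over probe sets. The groups were separate for both. The others that fell were Paxip1 (-0.78), which joins Pagr1a in the same complexes, Men1 (-0.68), Wdr5 (-0.51), Hcfc1 (-0.38) and Dpy30 (-0.18), and those that rose were Aff1 (0.51) and Mllt10 (0.28). Wdr5, Dpy30, Ash2l and Rbbp5 form the core shared by the H3K4 methyltransferase complexes, and of these Ash2l (-0.00) and Rbbp5 (0.18) did not pass. Kmt2d, as given above, fell, while Kmt2c and Kdm6a, of the same complexes, did not pass by their brightest probe sets.

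Of 15 other methyltransferases and demethylases, 5 rose and 5 fell, with a median of -0.03, and the largest change of all partners was among them. Smyd1, a SET domain protein known for its part in heart and skeletal muscle, read 43.5, 42.9 and 34.1 against 573, 696 and 840.3, 17.4-fold higher (4.12 ± 0.19 SE, limma adjusted p 4.88e-08). Smyd2, which methylates p53 and other proteins, read 1699, 1701 and 1457 against 6398, 6245 and 6009.9, 3.85-fold higher (1.94 ± 0.08, adjusted p 1.75e-08), and lies on chromosome 1 (median 0.31). The values of Smyd1 and of Smyd2 come from probe sets that can share sequence with other transcripts. Without such probe sets fewer partners were higher past 2-fold, as given in the last paragraph. Smyd3 (0.58), on chromosome 1, and Smyd4 (0.61), on chromosome 11 (median 0.29), also rose. Smyd1 and Nsd3 (0.86), the others that rose, lie on neither chromosome. The part of the chromosome-wide shifts in these counts was not tested. No member of the Kdm, Kmt2, Setd, Prmt, Hdac or Sirt families tested here differed as much as Smyd2 on the log2 scale.

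Histone acetyltransferases, which oppose the deacetylases, gave 5 higher and 2 lower of 12, with a median of 0.01. Of those that rose, Kat2a (0.73) and Kat7 (0.51) lie on chromosome 11 (median 0.29). Kat2b, Ncoa1 and Kat6a (0.55) rose as well and lie on neither chromosome 1 nor 11. Kat2b (PCAF) read 2272, 2483 and 2353 against 6513, 5996 and 6015, 2.61-fold higher (1.38 ± 0.07 SE, limma adjusted p 5.48e-08), and was at 0.99 without probe sets that can share sequence. Ncoa1, a nuclear receptor coactivator with acetyltransferase activity, read 545, 492 and 492 against 1296, 1286 and 1224, 2.49-fold higher (1.32 ± 0.09, adjusted p 4.47e-07). In both genes the lowest null array was more than 2 times the highest heterozygous array.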

How the data were processed

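The deposited intensity values, 1 per probe set and array, are linear, and per the values every array has a mean of 500 after trimming 2% at each end. Per the submitters' processing notes GCRMA was used, at a step not given in the sources used here. The array holds 45101 probe sets; the platform annotation names 1 gene for 34945, several for 932 and none for 9160, and 64 are controls. Values under 1 (3413 in all) were set to 1 and log2 was taken. Probe sets were kept where they reached 32 (a log2 of 5) in at least 3 of 6 arrays. Of those kept for a gene, the brightest by mean log2 value was tested. limma 3.58.1 in R 4.3.3 (lmFit, eBayes with an intensity trend) compared 3 null with 3 heterozygous arrays, with Benjamini-Hochberg adjustment over all genes tested. The script was tested on simulated data. Precision is limited by the small number of arrays.

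The members and lists were chosen with earlier results of these data known. Array values are given for members past both thresholds and for the 20 further members with the largest differences at an adjusted p under 0.05. Those of other members are examples. In partner lists they are given for up to 3 genes past both thresholds, or otherwise for the 2 largest, and other partners are named without them. Alternatives changed the filter, the floor, the variance model, the scaling, the probe set rule and the arrays used.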

Additional observations from a re-analysis of the deposited data

How the results depend on the processing

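Of 441 values of the 25 members that passed, recomputed under alternatives, 407 kept direction and call, 33 lost the call and 1 reversed (Setd7, 0.19 as a mean over probe sets); 14 members passed in every alternative that tested them. Centring arrays on the median of all probe sets gave 5 members higher and 1 lower past 2-fold, and 13 partners lower at the adjusted p alone. Of the 2-fold calls over all genes, 68.7% were then higher, against 53.8%. At the adjusted p alone, 2103 of all genes were then lower, against 3143. Means over probe sets gave 4 members lower and 1 partner lower past 2-fold, and 11 partners higher at the adjusted p alone. Over all 12927 genes, such means gave 855 lower past 2-fold and 2753 higher at the adjusted p. Without probe sets that can share sequence, 3 partners were higher past 2-fold, as were 795 of all 11278 genes then tested. Without the genes of chromosomes 1 and 11, chosen after seeing the data, 0 members (Sirt7 being removed with its chromosome) and 3 partners were higher past 2-fold. Of all 11104 genes tested there, 706 were higher past 2-fold. Leaving out each array in turn gave 1 to 2 members higher and 1 to 4 lower past 2-fold, and 9 to 12 higher and 12 to 17 lower at the adjusted p. The same gave 5 to 6 partners higher and 0 lower past 2-fold, and 20 to 23 higher and 18 to 23 lower at the adjusted p. Over all 12927 genes it gave 883 to 958 higher and 669 to 848 lower past 2-fold. At the adjusted p it gave 2778 to 3023 of all genes higher and 2580 to 3116 lower. The replicate numbers did not pair the arrays (correlations of deviations 0.0327, 0.0279 and 0.0762). With them as a replicate block, 15 members were higher and 18 lower, and 1 and 3 past 2-fold. Over all 12927 genes the block gave 3427 higher and 3392 lower, against 3162 and 3143 without it, and 938 and 809 past 2-fold. Dim probe sets limit Hdac9, Kdm4d and Kdm5d, which were not tested.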
